A study of Mus musculus with 2 samples.

Results

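Expression of 10 primitive streak and early mesoderm factors was compared between shKdm5b and shLuc mouse ES cells after 72 h of culture in medium lacking LIF, a cytokine used to keep ES cells undifferentiated. The factors were taken by name and are *T*, *Mixl1*, *Eomes*, *Gsc*, *Evx1*, *Mesp1*, *Wnt3*, *Fgf8*, *Tbx6* and *Lhx1*. All 10 are among the 21935 gene symbols in the deposited expression values. Both groups are R1 ES cells, a line kept on irradiated fibroblasts with serum and LIF and then cultured without LIF. The labels name low attachment dishes for this step, in which cells form aggregates, whereas the methods of the study also name gelatin-coated ones and do not say which held these cells. shKdm5b ES cells carry a lentiviral short hairpin RNA (shRNA) against *Kdm5b*, which codes for a demethylase of lysine 4 of histone H3. shLuc ES cells carry one against luciferase, a gene mouse cells do not have, and both were selected with puromycin. Each group is 1 RNA-Seq library, so that library and condition cannot be told apart, no p-value is given, and all intervals below cover counting error only.

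Libraries of polyadenylated RNA held 78172698 aligned reads for shLuc and 72702698 for shKdm5b ES cells, of which 67.9% and 66.3% lay on the genes analysed. In the shKdm5b library, 20.1% of the reads lay at distinct positions, against 32.9% in the shLuc library, so fewer separate fragments stood behind its counts. *Kdm5b* itself had 51378 reads in shLuc and 1377 reads in shKdm5b ES cells. Its RPKM, the reads normalized to transcript length and library total, was 104 and 3.01, so that 2.88% of the shLuc level was left. Markers of ES cells were abundant in both libraries, with *Sox2* at 237 RPKM in shLuc and 272 RPKM in shKdm5b ES cells. *Pou5f1*, which codes for OCT4, was at 619 and 182 RPKM.

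The primitive streak is the region of the gastrulating embryo through which epiblast cells leave the epithelium and become mesoderm and definitive endoderm. WNT3 and NODAL signals set it up in the posterior epiblast, and the T-box proteins Brachyury (the product of *T*) and EOMES are among the first transcription factors made there. *Mixl1* and *Evx1* are homeobox genes of the streak, *Gsc* and *Lhx1* mark its anterior end and the organizer, *Mesp1* marks the earliest cardiac and cranial mesoderm, and *Tbx6* marks the paraxial mesoderm. FGF8 is the secreted factor that cells of the streak need in order to move away from it. ES cells deprived of LIF as aggregates can enter this course, which makes these genes a common readout of early differentiation.

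Promoter sequences in RefSeq (GRCm38.p6) were found for 8 of the 10 genes, all but *Mixl1* and *Fgf8*. 4 are shown, those of *T*, *Wnt3* and *Eomes*, the genes whose counting intervals lay above equal RPKM, and that of *Lhx1*, the gene furthest below it. Each line gives the 250 bases before the transcription start, 5′ to 3′ on the strand of the gene, at chr17:8434173-8434422 (plus strand) for *T*, chr11:103773925-103774174 (plus) for *Wnt3*, chr9:118477939-118478188 (plus) for *Eomes* and chr11:84525535-84525784 (minus) for *Lhx1*. Capitals mark matches, on either strand, to 6 short motifs of factors that act in the streak or at promoters in general.
T: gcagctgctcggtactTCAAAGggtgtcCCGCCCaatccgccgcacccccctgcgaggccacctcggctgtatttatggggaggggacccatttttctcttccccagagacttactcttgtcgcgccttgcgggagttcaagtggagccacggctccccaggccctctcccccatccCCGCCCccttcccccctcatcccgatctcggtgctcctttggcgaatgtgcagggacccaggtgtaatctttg
Wnt3: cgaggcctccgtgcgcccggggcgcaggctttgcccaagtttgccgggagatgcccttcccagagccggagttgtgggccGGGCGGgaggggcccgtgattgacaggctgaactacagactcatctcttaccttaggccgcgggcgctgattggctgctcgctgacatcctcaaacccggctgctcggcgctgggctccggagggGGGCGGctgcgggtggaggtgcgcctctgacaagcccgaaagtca
Eomes: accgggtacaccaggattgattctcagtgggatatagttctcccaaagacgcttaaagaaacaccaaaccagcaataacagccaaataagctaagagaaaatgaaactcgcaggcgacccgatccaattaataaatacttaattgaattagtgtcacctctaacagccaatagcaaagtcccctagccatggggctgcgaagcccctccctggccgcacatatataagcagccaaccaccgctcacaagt
Lhx1: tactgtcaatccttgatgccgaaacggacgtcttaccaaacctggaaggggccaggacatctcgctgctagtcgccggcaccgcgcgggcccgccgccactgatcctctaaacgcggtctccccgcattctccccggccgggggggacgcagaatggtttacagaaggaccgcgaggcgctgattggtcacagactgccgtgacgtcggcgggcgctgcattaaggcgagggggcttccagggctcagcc

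The *T* promoter holds 1 match to CTTTGA, the letters bound by TCF/LEF proteins at the end of the Wnt pathway, at -234 to -229 from the start. In windows that reach from 250 bases before to 50 bases after the start, these letters occur in 16.0% of 32851 promoters and in those of *T* and *Mesp1*. GC boxes, spelled GGGCGG, occur 2 times each in the printed promoters of *T* and of *Wnt3*. They occur in 35.7% of all promoters and also in that of *Gsc*. T-box letters, GGTGTGA, lie in 3.98% of all promoters and in that of *Mesp1*. SMAD letters, CAGACA, lie in 21.0% of all promoters and in that of *Evx1*. TATA box letters, searched only as TATAAA, lie in 13.6% of all promoters and in those of *Gsc* (-164 to -159) and *Tbx6* (-43 to -38). Letters for FOXH1, a partner of SMAD proteins in Nodal signalling, were searched as AATNNACA and lie in 12.2% of all promoters and in none of these 8. The promoters of *Eomes* and *Lhx1* held none of the 6 motifs as spelled here. Other spellings were not searched, such as the TATATAAG near the end of the printed *Eomes* line, so a TATA box there is not excluded. CpG pairs numbered 31 in the *Lhx1* window, 25 in *Gsc*, 24 in *Wnt3*, 17 in *T*, 12 in *Evx1*, 10 in *Eomes*, 7 in *Tbx6* and 4 in *Mesp1*, beside a median of 7 over all promoters. Genes that were higher and genes that were lower in shKdm5b ES cells are thus both found among the CpG-rich windows.

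These genes were expressed at low levels in both libraries. Only *Eomes* and *Fgf8* had an RPKM above 1, the threshold of the study for differential expression, in at least 1 library. The 10 genes had 1146 reads in total in shLuc and 1452 in shKdm5b ES cells, and *Eomes* gave 61.1% and 74.1% of these. The summed reads, each relative to its library total, were 1.36-fold higher in shKdm5b ES cells (95% Clopper-Pearson interval 1.26 to 1.47). Without *Eomes* the ratio was 0.906 (0.788 to 1.04), which includes equal levels, and the higher sum therefore rests on that gene.

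**Figure D1:**
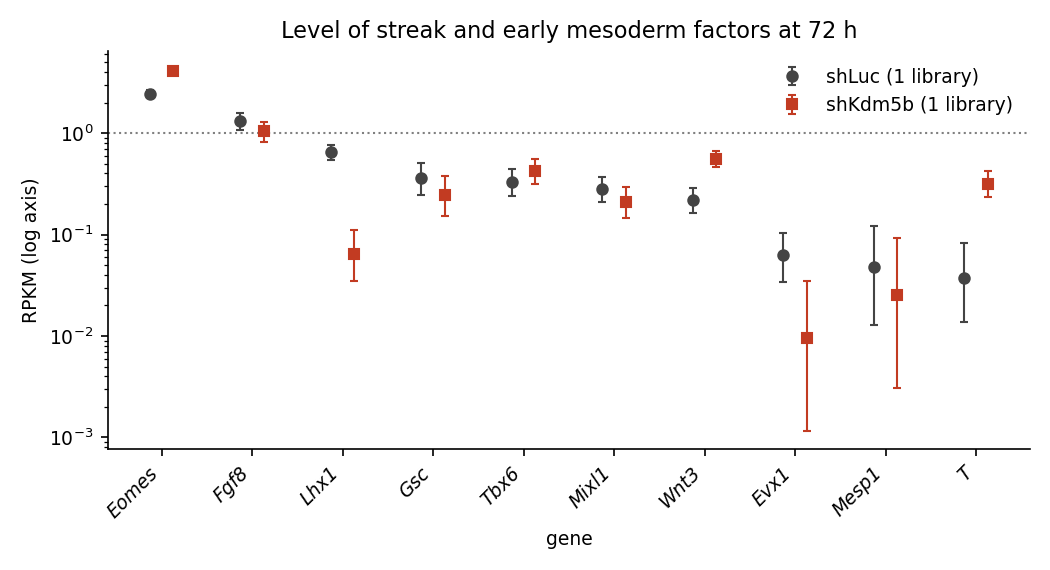
RPKM of each gene (log axis) in the shLuc library (circles) and the shKdm5b library (squares), 1 library each, with exact Poisson 95% intervals of the reads as bars and a dotted line at 1 RPKM. *Eomes* is the highest gene in both libraries, *Lhx1* lies lower and *T* higher in shKdm5b ES cells.

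In shLuc ES cells the order of RPKM ran from *Eomes* through *Fgf8* and *Lhx1* to a group made of *Gsc*, *Tbx6*, *Mixl1* and *Wnt3*, and then to *Evx1*, *Mesp1* and *T*. Neighbours within the group of 4 and within the lowest 3 did not differ beyond counting error, whereas the other 4 of 9 steps did. In shKdm5b ES cells the order was *Eomes*, *Fgf8*, then *Wnt3*, *Tbx6*, *T*, *Gsc* and *Mixl1*, and last *Lhx1*, *Mesp1* and *Evx1*. There, 3 of 9 steps exceeded counting error, those from *Eomes* to *Fgf8*, from *Fgf8* to *Wnt3* and from *Mixl1* to *Lhx1*. *T* thus stood at place 10 in shLuc and place 5 in shKdm5b ES cells, and *Lhx1* at places 3 and 8.

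The T-box genes were at higher RPKM in shKdm5b ES cells, although for *Tbx6* not beyond counting error. *T* (NM_009309), on chromosome 17 from 8434423 to 8442496 with 8 exons in the GENCODE M21 annotation of GRCm38, had 6 reads (0.0375 RPKM) in shLuc and 47 reads (0.316 RPKM) in shKdm5b ES cells. Its RPKM was 8.42-fold higher in shKdm5b ES cells (95% interval 3.59 to 24.1). *T* was close to the limit of detection in the shLuc library, in which 3 reads on its transcript correspond to 0.0188 RPKM, so the size of the ratio is poorly fixed. On the log2(RPKM + 0.1) scale, used for all log2 ratios here and compressing those of low genes, the difference was 1.60 (1.09 to 1.95).

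*Eomes* (NM_001164789), on chromosome 9 from 118478212 to 118486132, had 700 reads (2.45 RPKM) in shLuc and 1076 reads (4.05 RPKM) in shKdm5b ES cells. It rose 1.65-fold (95% interval 1.50 to 1.82), past the 1.5-fold threshold, with a log2 ratio of 0.70. The other RefSeq entry of *Eomes*, of 3714 bases, gave 2.46 and 4.01 RPKM from largely the same reads. *Eomes* was the gene with by far the most reads of the 10, and the lower end of its interval lies at the threshold (1.43 with the interval widened for reads at shared positions). With a pseudocount of 1 its log2 ratio was 0.55, short of the threshold. *Tbx6* (NM_011538), on chromosome 7 from 126781483 to 126785560, had 44 and 53 reads (0.328 and 0.425 RPKM), a ratio of 1.30 (0.852 to 1.98) that includes equal levels.

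Of the secreted factors, *Wnt3* was higher in shKdm5b ES cells. *Wnt3* (NM_009521), on chromosome 11 from 103774150 to 103817957, had 53 reads (0.218 RPKM) in shLuc and 127 reads (0.561 RPKM) in shKdm5b ES cells. The ratio was 2.58 (95% interval 1.86 to 3.62) and the log2 ratio 1.06, with both libraries below 1 RPKM. *Fgf8* (NM_001166363), on chromosome 19 from 45736798 to 45742915, had 103 reads (1.31 RPKM) and 76 reads (1.04 RPKM). Its ratio of 0.793 (0.582 to 1.08) did not exceed counting error. The 4 *Fgf8* entries, which share most of their exons, all gave lower values in the shKdm5b library, between -0.33 and -0.30 on the log2 scale.

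**Figure D2:**
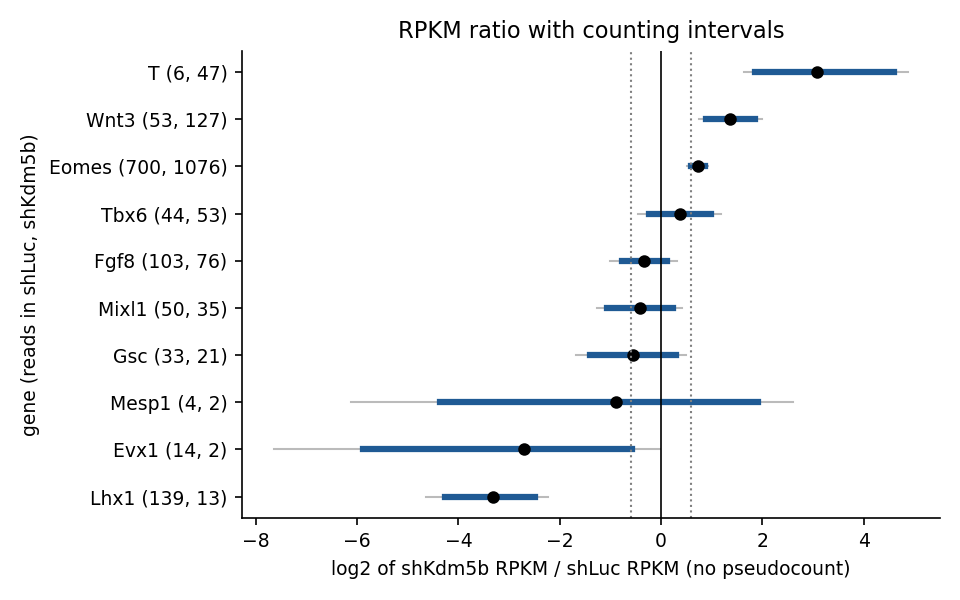
Ratio of shKdm5b to shLuc RPKM on a log2 axis without pseudocount, 1 gene per row with its reads in both libraries, the 95% counting interval as a thick bar and the interval widened for reads at shared positions as a thin line. Dotted lines mark 1.5-fold in each direction, and *T*, *Wnt3* and *Eomes* lie to the right of 0 with both intervals, *Lhx1* and *Evx1* to the left.

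The 4 homeobox genes were at lower RPKM in shKdm5b ES cells (*Gsc* at higher after correction for GC content), with the largest difference at *Lhx1*. *Lhx1* (NM_008498), on chromosome 11 from 84518284 to 84525535 on the minus strand, had 139 reads (0.647 RPKM) in shLuc and 13 reads (0.0650 RPKM) in shKdm5b ES cells. Its RPKM was 9.94-fold lower in shKdm5b ES cells (95% interval 5.63 to 19.1), and the log2 ratio was -2.18 (-2.52 to -1.77). In the shLuc library *Lhx1* exceeded 7 of the 10 genes, and in the shKdm5b library it did not differ from *Mesp1* beyond counting error. *Evx1* (NM_007966), on chromosome 6 from 52313498 to 52318378, had 14 reads (0.0622 RPKM) and 2 reads (0.00956 RPKM), 6.51-fold lower with an interval of 1.50 to 59.0. It shares 73 exon bases with the antisense gene *Evx1os*, and it is not stated whether reads were counted by strand, so reads of the pair cannot be told apart there.

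The remaining homeobox genes differed by less than counting error. *Mixl1* (NM_013729), on chromosome 1 from 180693043 to 180697034, had 50 and 35 reads (0.279 and 0.210 RPKM), a ratio of 0.753 (0.474 to 1.18). *Gsc* (NM_010351), on chromosome 12 from 104471209 to 104473330, had 33 and 21 reads (0.360 and 0.246 RPKM), a ratio of 0.684 (0.376 to 1.22). *Mesp1* (NM_008588), the single basic helix-loop-helix factor of the list, on chromosome 7 from 79792241 to 79793788, had 4 and 2 reads (0.0476 and 0.0256 RPKM), and its ratio of 0.538 had an interval of 0.0486 to 3.75. For *Mesp1* a difference of several-fold in either direction was not detectable at this depth.

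With an RPKM above 1 in at least 1 library and a difference of more than 1.5-fold, 1 gene (*Eomes*) of the 2 that passed the RPKM threshold was higher and 0 were lower. Among all 11804 genes with such an RPKM, 16.3% were higher and 32.0% lower (21.9% and 25.5% with the libraries scaled to a median log2 ratio of 0). Without the RPKM threshold, *T*, *Wnt3* and *Eomes* were more than 1.5-fold higher (3 of 10) and *Lhx1* lower (1 of 10), beside 13.3% and 28.8% of the 18155 genes with reads. The counting interval lay above equal RPKM for these 3 genes and below it for 2, *Lhx1* and *Evx1*, whereas it did so for 26.0% and 45.3% of the 18155 genes. The difference thus exceeded counting error at 5 of the 10 genes and at most genes overall. With intervals widened for reads that lay at the same position, a step chosen after seeing the data, the same 5 genes remained, beside 23.5% of all genes above and 40.8% below. For *Evx1* the widened interval ended at 0.981, just short of equal levels.

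**Figure D3:**
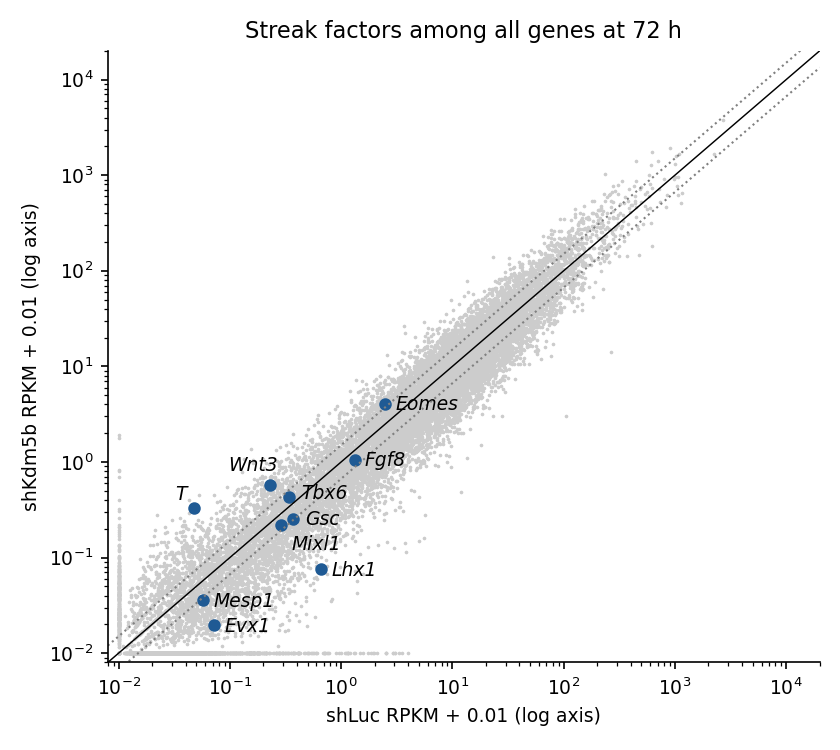
RPKM + 0.01 of every gene in the shLuc library (horizontal) and the shKdm5b library (vertical) on log axes, with the streak and early mesoderm genes in blue, a solid line at equal values and dotted lines at 1.5-fold. *T* and *Lhx1* lie near opposite edges of the cloud of genes of like level, while *Fgf8*, *Gsc*, *Mixl1* and *Tbx6* lie within it.

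Over the 10 genes the log2 ratio had a median of -0.26, against -0.04 for all 21935 genes, -0.21 for genes passing the RPKM threshold and -0.17 for the 6351 genes with reads and an RPKM of at most 1. The list as a whole therefore lay near the middle of all genes, with genes far out on both sides. Genes with an RPKM above 1 in both libraries had a median of -0.17, and with the libraries scaled to set this to 0 the log2 ratio was 1.73 for *T*, 1.20 for *Wnt3*, 0.87 for *Eomes* and -2.11 for *Lhx1*.

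GC content moved with the ratio across the genome and bears on these genes, whose transcripts range from 48.5% GC (*Mixl1*) to 66.6% (*Gsc*). Among genes with an RPKM above 1, the median log2 ratio went from 0.48 in the lowest to -0.88 in the highest of 10 equal groups by GC content. Among lower genes with at least 20 reads it went from 0.05 to -0.56. *Gsc*, *Fgf8*, *Mesp1*, *Evx1* and *Tbx6* lie in the GC-richest group, *Eomes* in the one below it, and *T*, *Wnt3*, *Lhx1* and *Mixl1* nearer the middle.

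With the ratio corrected for GC content, *T* was at 1.89, *Eomes* at 1.43, *Wnt3* at 1.41 and *Lhx1* at -1.98 on the log2 scale, so these 4 kept their direction. *Tbx6* went to 0.99 and *Fgf8* from -0.31 to 0.69, and *Gsc* from -0.41 to 0.42. *Mesp1* moved from -0.23 to 0.02, whereas *Evx1* (-0.46) and *Mixl1* (-0.23) stayed below 0. The median of the 10 genes became 0.56, and 2 genes, *Eomes* and *Fgf8*, were then higher by the thresholds of RPKM and fold. The direction given above for *Fgf8*, *Gsc* and *Mesp1* thus depends on the correction, which was fitted on genes with an RPKM above 1 and is less certain for lower ones. The part of GC content in these differences was not tested.

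**Figure D4:**
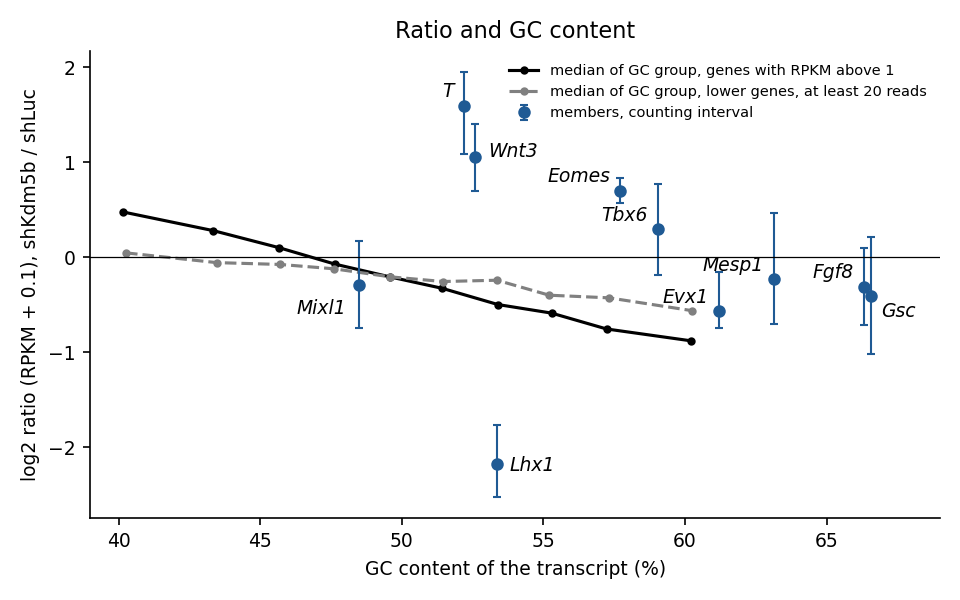
Log2 ratio (RPKM + 0.1) of each gene against the GC content of its transcript in percent, with 95% counting intervals, and lines through the medians of 10 groups of genes by GC content, solid for genes with RPKM above 1 and dashed for lower genes with at least 20 reads. Both lines fall with GC content, *T*, *Wnt3*, *Eomes* and *Tbx6* lie above them and *Lhx1* below.

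Signals that act on the streak were compared next, by the same thresholds and without the 10 genes themselves. Their counts, like those of the later lists, are to be read against the 16.3% higher and 32.0% lower among all genes with an RPKM above 1. Of 17 genes of Nodal signalling, 16 had an RPKM above 1, 0 were higher and 6 lower (2 and 5 with median scaling), with a median log2 ratio of -0.22. *Nodal* itself was at 21.5 RPKM in shLuc and 22.7 RPKM in shKdm5b ES cells, and was chosen for mention after its values were seen. The furthest genes were *Acvr1b* (-1.84) and *Acvr2b* (-1.19), receptors, *Gdf1* (-1.35), a ligand, and *Pcsk6* (-1.12), a protease that processes the ligands. With the GC correction *Pcsk6* (-0.50), *Gdf1* (-0.35) and *Acvr2b* (-0.21) no longer passed the threshold. The receptor *Acvr1b* remained at -1.38.

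Of 24 genes of canonical and other Wnt signalling, 16 had an RPKM above 1, 2 were higher and 3 lower, with a median of -0.19. *Wnt8a*, a ligand made in the streak, rose from 64 reads (0.539 RPKM) to 150 reads (1.36 RPKM), a log2 ratio of 1.19. *Tcf7* rose (0.68), and *Lef1* (-0.76) and *Axin1* (-1.10), a scaffold of the complex that degrades beta-catenin, fell. *Axin2*, a common target of the pathway, was at 3.84 and 3.90 RPKM, and *Sp5*, another, at 13 and 26 reads, both chosen after their values were seen. *Wnt3a*, also chosen so, had no reads in either library. Of the other ligands, all below 1 RPKM and named after their values were seen, *Wnt5a* was lower (314 and 155 reads, ratio 0.531, interval 0.435 to 0.645), and *Wnt5b* (0.721) and *Wnt11* (0.653) did not differ beyond counting error. *Dkk1*, also named after its values were seen, had 118 and 22 reads (ratio 0.200, interval 0.121 to 0.318). Counting intervals lay above equal RPKM for 7 of the 24 genes and below it for 11, beside 26.0% and 45.3% of all genes with reads. Ligands and effectors of the pathway thus both differed in both directions before the GC correction. With it, *Lef1* (-0.44) and *Axin1* (-0.50) no longer passed the threshold, while *Wnt8a* was at 1.76 and *Tcf7* at 1.07.

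Among 16 genes of BMP signalling, 13 had an RPKM above 1, 3 were higher and 3 lower, with a median of 0.22. *Id2* (1.60), *Msx2* (1.17) and *Bmp7* (1.06) rose and *Id3* (-1.10) fell. With the GC correction *Id3* (-0.49) no longer passed the threshold, and *Id2* was at 1.25, *Msx2* at 1.26 and *Bmp7* at 1.63. *Bmp2*, below 1 RPKM and named after its values were seen, had 54 and 5 reads (ratio 0.0996, interval 0.0311 to 0.247). Counting intervals lay above equal RPKM for 9 of the 16 genes and below it for 5, beside 26.0% and 45.3% of all genes with reads. Among 16 genes of FGF signalling, 15 had an RPKM above 1, 1 was higher and 4 lower (2 and 4 with median scaling), with a median of -0.19. *Etv4* (-1.65) and *Spry4* (-1.43), a target and a feedback inhibitor of the pathway, fell, as did *Fgf3* and *Fgfr4* (-0.84 each). With the GC correction *Etv4* was at -0.86 and *Spry4* at -1.13, and *Fgf3* (-0.22) and *Fgfr4* (-0.14) no longer passed the threshold. The gene that rose was *Dusp6* (0.75), which codes for a phosphatase of ERK and was named after its values were seen. Each of the 4 pathways thus held genes past the threshold, and none had a median past 1.5-fold. With the GC correction the medians were 0.12 for Nodal, 0.21 for Wnt, 0.39 for BMP and -0.01 for FGF signalling.

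Genes that act later in mesoderm were mixed as well. Of 28, 8 had an RPKM above 1, 3 were higher and 1 lower, with a median of -0.14. *Twist1*, a factor of mesenchyme and cranial mesoderm, rose from 1.95 to 7.05 RPKM (249 and 836 reads, log2 ratio 1.80). *Dll1* (0.85), a Notch ligand of the presomitic mesoderm, and *Lmo2* (0.84) rose, and *Tal1* (-1.69), a factor of blood and endothelium, fell. Counting intervals lay above equal RPKM for 8 of the 28 genes and below it for 8, beside 26.0% and 45.3% of all genes with reads. The median was 0.32 with the GC correction.

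Below 1 RPKM, and named after their values were seen, *Cdx1* had 4 and 26 reads and *Foxc2* 6 and 40 reads, whereas *Msgn1* had 18 and 0 reads and *Pdgfra* 260 and 54. *Msgn1* and *Tbx6* are both factors of the presomitic mesoderm, and the counting interval of the *Msgn1* ratio ended at 0.245, below that of *Tbx6*. In shKdm5b ES cells 0 reads for *Msgn1* allow up to the RPKM of 3 reads, 0.0728.

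Node and definitive endoderm genes, which share the anterior streak with *Lhx1* and *Gsc*, were lower in part. Of 15, 6 had an RPKM above 1, 1 was higher and 3 lower (2 and 3 with median scaling), with a median of -0.66 that was -0.19 with the GC correction. *Gata4* (-2.07), *Cxcr4* (-1.73) and *Gata6* (-1.62) fell and *Fst* (1.26), an inhibitor of activin, rose. *Cer1*, an inhibitor of Nodal and BMP made in anterior endoderm, had 34 and 0 reads and was named after its values were seen. Counting intervals lay below equal RPKM for 9 of the 15 genes and above it for 2, beside 45.3% and 26.0% of all genes with reads. Of these genes, 4 (*Gata4*, *Gata6*, *Sox17* and *Foxa2*) are also among the visceral endoderm markers described next. The median was the same with 3 reads given to genes at 0 in 1 library, as it was for the later mesoderm genes.

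Markers of visceral endoderm, an extraembryonic layer in which *Lhx1* and *Eomes* are also made, were lower, as was *Lhx1*. All 6 of its 10 genes with an RPKM above 1 fell past the threshold, beside 32.0% of all genes with such an RPKM. All 10 had counting intervals below equal RPKM, beside 45.3% of all genes with reads. The median log2 ratio was -2.37 (-1.78 with the GC correction, and -2.24 where the gene without reads was given 3). *Ttr* (-3.49), *Apoa1* (-2.52), *Dab2* (-2.52) and *Amn* (-2.42) were furthest, and *Afp*, named after its values were seen, had 65 reads and 0. The summed RPKM of the 10 markers was 32.0 in the shLuc and 5.27 in the shKdm5b library, and their summed reads stood at a ratio of 0.171 (95% interval 0.161 to 0.182). The interval of the *Lhx1* ratio, 0.101 (0.0522 to 0.178), overlapped that counting interval, while *Eomes* differed in the opposite direction. *Dab2* gave 5488 of the 7642 summed reads in shLuc ES cells. Single markers varied widely, from *Afp*, without reads in shKdm5b ES cells, to *Foxa2* at a ratio of 0.574. The part of this cell type in the *Lhx1* result was not tested, and in such bulk samples fewer cells of a type and less RNA per cell cannot be told apart.

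**Figure D5:**
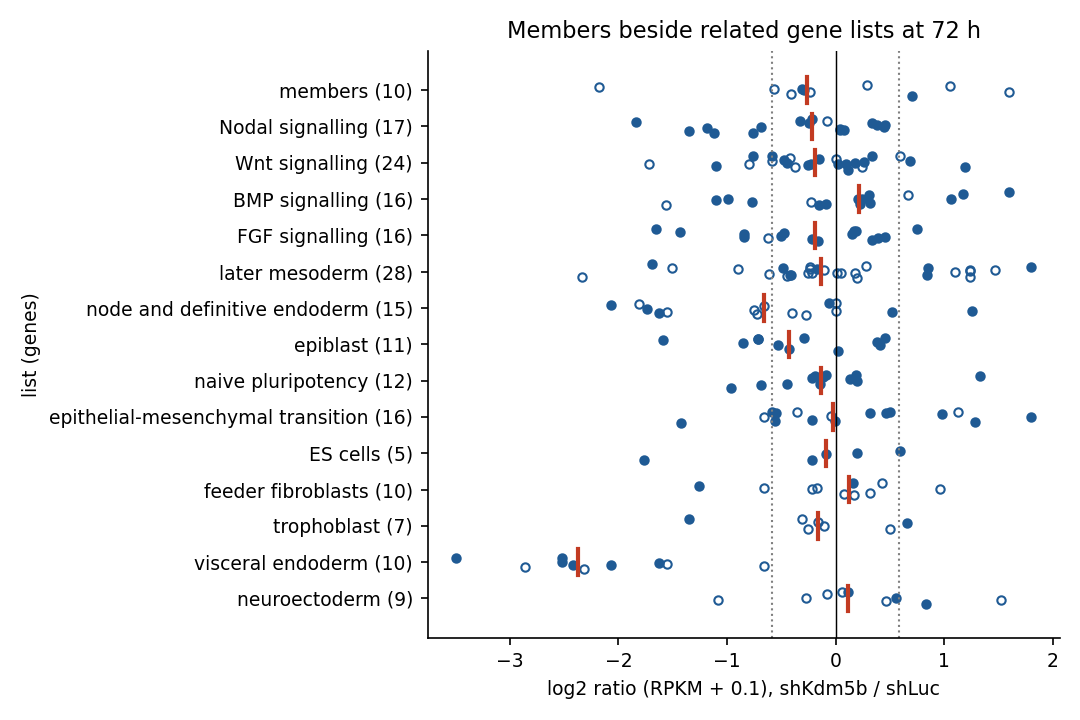
Log2 ratio (RPKM + 0.1) of the genes of each list, filled where the RPKM was above 1 in at least 1 library and open otherwise, with the list median as a red bar, a solid line at 0 and dotted lines at 1.5-fold. The streak and early mesoderm genes (top row) spread to both sides, and the visceral endoderm markers lie to the left, around a median of -2.37.

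The epiblast, from which the streak forms, and the naive state that precedes it were described by lists of their own. All 11 epiblast genes had an RPKM above 1, 0 were higher and 4 lower (median -0.43; 1 and 2 with median scaling), with *Sox4* (-1.59), *Sox3* (-0.85), *Sall2* (-0.71) and *Dnmt3a* (-0.71) furthest. The epiblast median was 0.20 with the GC correction. Of 12 naive pluripotency genes, 1 was higher and 2 lower (median -0.13; 1 and 1 with median scaling), with *Dppa3* at 1.33, *Esrrb* at -0.96, *Nr0b1* at -0.68 and *Prdm14* at -0.44. Their median was 0.04 with the GC correction, and without it lay above the -0.21 of all genes with an RPKM above 1.

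Cells that pass through the streak exchange E-cadherin for N-cadherin in an epithelial-mesenchymal transition. Of 16 genes of this process, 12 had an RPKM above 1, 3 were higher and 1 lower (5 and 1 with median scaling), with a median of -0.03 that was 0.25 with the GC correction. *Twist1* (1.80), *Cdh2* (1.29), which codes for N-cadherin, and *Epcam* (0.98), an epithelial adhesion gene, rose, and the integrin *Itga5* (-1.43) fell. *Cdh1*, which codes for E-cadherin and was named after its values were seen, was not lower. It was at 136 RPKM in shLuc and 170 RPKM in shKdm5b ES cells, a log2 ratio of 0.32 (0.58 with the GC correction), short of the threshold. Both mesenchymal and epithelial genes were thus among those that rose.

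Other cell types were checked by their markers. Fibroblast markers, for the feeder cells, summed to 6.68 RPKM in shLuc and 6.89 RPKM in shKdm5b ES cells over 10 genes, with *Lum* at 2 and 4 reads and *Postn* at 3 and 0, both named after their values were seen. Only 2 of these 10 had an RPKM above 1, of which 0 were higher and 1 (*Fbln2*, -1.26) lower, and *Thy1* was at 0.16. *Thy1* gave most of the sums, 4.08 RPKM in shLuc and 4.59 RPKM in shKdm5b ES cells. *Dcn*, below 1 RPKM and also named after its values were seen, had 17 and 43 reads (ratio 2.72, interval 1.52 to 5.09). Counting intervals lay above equal RPKM for 1 of the 10 genes and below it for 1, beside 26.0% and 45.3% of all genes with reads. The median of the 10 was 0.12. Of 9 neuroectoderm markers, 3 had an RPKM above 1 and 1 was higher (*Nes*, 0.83), *Sox1* was at 0.55 and *Pax6* at 0.11, with a median of 0.11 (0.17 with 3 reads given to genes at 0 in 1 library). Their summed RPKM was 6.02 in the shLuc and 8.61 in the shKdm5b library. Of 7 trophoblast markers, *Krt18* rose (0.66) and *Krt8* fell (-1.35). The summed RPKM was 17.9 and 21.9, of which *Krt18* gave 12.3 and 19.6 and *Krt8* 5.24 and 1.99. Below 1 RPKM, and named after their values were seen, *Elf5* and *Plac1* had 2 reads each in shLuc and 0 in shKdm5b ES cells. *Gata3*, also named so, had 26 and 44 reads (ratio 1.82, interval 1.10 to 3.08), and its widened interval included equal levels. Counting intervals lay above equal RPKM for 2 of the 7 genes and below it for 1, beside 26.0% and 45.3% of all genes with reads. Of 5 ES cell markers, *Dppa5a* rose (0.59) and *Pou5f1* fell (-1.76), while *Sox2* was at 0.20 and *Zfp42* at -0.22. The part of these cell types in the results above was not tested.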

How the data were processed

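Polyadenylated RNA was sequenced from 1 library each of shLuc and shKdm5b ES cells at 72 h without LIF. The authors deposited, for 27405 RefSeq entries, a whole-number read count and the RPKM that they computed from it with the transcript length and sequencing depth. CASAVA 1.0, Bowtie 0.12.7 and build mm8 are named in the submitters' processing notes; the counting program and its use of strand are not given in the sources used here. The authors also deposited read positions on mm8, which were used for depth and shared positions but could not be joined to genes, since no mm8 annotation was used here. A further column of small whole numbers was not used.

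Where several entries shared one of the 21935 symbols, the one highest in mean RPKM represented it. A pseudocount of 0.1 RPKM was added before log2 ratios were taken. Thresholds of 1.5-fold and RPKM above 1 in at least 1 library follow the study; its FDR was not applied, since 1 library per group gives no estimate of the spread. Intervals (95%) are exact: Clopper-Pearson for ratios of reads given the library totals and Poisson for levels, and they treat PCR copies as separate molecules. Widened intervals divide the reads by the reads per distinct position in 1000-base windows of like density, which were 1.28 to 1.76 for shLuc and 1.78 to 2.75 for shKdm5b. GC content was taken from GENCODE M21 transcripts matched by RefSeq accession (97.1% of symbols, 10 of 10 genes of the report), and a lowess curve (fraction 0.3) over 11535 genes with RPKM above 1 was removed. Some matched transcripts differ in length from the counted entries, so their GC values are approximate. Examples are *Eomes* (2869 bases against 3657 in the entry), *Lhx1* (3846 against 2750) and *Fgf8* (843 against 1006). GRCm38 coordinates describe the genes, not the alignment.

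The 10 genes, the other lists and the alternatives were chosen with earlier results of these data known. Of the other listed genes, the 4 with the largest absolute log2 ratio and an RPKM above 1 were to be named per list; others are marked, except genes named as members of 2 lists. With 2 libraries no gene was named for likeness to another. Listed symbols *Tfcp2l1* and *Tfap2c* were not matched. Python 3.11.15, pandas 2.3.3, NumPy 2.4.6, SciPy 1.17.1, statsmodels 0.14.6 and, for TMM factors only, edgeR 4.0.16 (R 4.3.3) were used. Only the counting interval of ratios and the call by RPKM and fold were tested on simulated Poisson reads, which held no shared positions and no GC trend. The widened intervals, GC and length corrections, scalings and motif search were not tested in that way.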

Additional observations from a re-analysis of the deposited data

How the results depend on the processing

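The count of genes more than 1.5-fold higher (1, *Eomes*) became 0 with a pseudocount of 1 or a threshold of 2-fold, 2 with the GC correction and 3 without the RPKM threshold, and the other pseudocount, scalings, entry sums and filters, and the GC and length correction, left it at 1. The count of lower genes (0) became 1 without the RPKM threshold. The median log2 ratio of -0.26 became 0.56 with the GC correction, 0.18 with a GC and length correction and 0.20 over the 2 genes with RPKM above 1, and lay between -0.36 and -0.05 under the others. The ratio of summed reads (1.36) ranged from 0.906 (without *Eomes*) to 1.54 (without *Lhx1*) when each gene was left out in turn, and was 1.59 with TMM factors. Of single genes, *Gsc* and *Fgf8* changed sign with both GC corrections and *Mesp1* with the first, while *T*, *Mixl1*, *Eomes*, *Evx1*, *Wnt3*, *Tbx6* and *Lhx1* kept theirs under all 7 alternatives, over ranges of 0.34 to 2.78 for *T*, 0.36 to 1.50 for *Wnt3*, 0.55 to 1.57 for *Eomes* and -3.13 to -0.63 for *Lhx1*. The pseudocount sets the size of these log2 ratios, since most of the genes have few reads. Counts restricted to distinct read positions were not run, because read positions on mm8 could not be joined to the genes. No paired analysis was possible because shLuc and shKdm5b ES cells are 1 library each.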
